A study of Mus musculus with 9 samples.

Results

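The 10 genes described here govern the passage of a cell from G1 into S phase, and they were measured in the colon epithelium of mice fed heme, the iron-containing pigment of red meat. They were chosen by name, as D-type and E-type cyclins, kinases and inhibitors of this step. The set does not hold every gene of these families. Cdk2 and the inhibitors Cdkn2a, Cdkn2c and Cdkn2d, for example, are outside it. The set held 10 genes, of which 9 had a probeset annotated to that gene alone, among 19938 genes with such a probeset. All 9 passed the filter on dim genes and stood among the 14953 genes tested. The only probeset that lists Cdkn1a is also annotated to a second gene, so no value is given for it. The mice were male C57BL/6J animals, an inbred laboratory strain, aged 9 to 11 weeks. For 1 week all of them ate a control diet in which fat supplied 40% of the energy. They then received either that diet with 0.2 µmol heme per g (4 pools, of days 2, 4, 7 and 14) or the same diet without heme (5 pools, of days 0, 2, 4, 7 and 14). Epithelial cells were scraped from the opened colon, and each array was hybridised with 1 RNA pool of 4 mice, or of 3 mice for the control pool of day 2. Day 0 marks the close of that first week, before any heme was fed. The series title asks which responses to heme come at once and which are delayed, hyperproliferation among them.

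Cells enter S phase when D-type cyclins switch on the kinases Cdk4 and Cdk6, which phosphorylate the retinoblastoma protein and thereby release E2F transcription factors. E2F factors induce E-type cyclins, which work with Cdk2 to start DNA replication. Inhibitors of the INK4 family, such as Cdkn2b, bind Cdk4 and Cdk6, whereas those of the Cip and Kip family (Cdkn1a, Cdkn1b and Cdkn1c) act on cyclin and kinase complexes. In the colon, cells divide in the lower crypt and leave the cycle as they move up towards the surface.

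All levels are RMA values on the log2 scale, and a difference of log2 values is a log2 fold change. Levels of different genes come from different probes and are not set against each other. The array medians lay between 5.895 and 5.963. The epithelial marker Epcam stood at 11.68 in the heme pools and 11.72 in the control pools (means, n = 4 and 5). The mean of 10 smooth muscle genes lay between 6.93 and 8.54 in the heme pools and between 6.99 and 9.14 in the control pools, with both pools of day 2 low and both pools of day 7 high. The mean of 10 exocrine pancreas genes was 3.22 above the control mean in the heme pool of day 2 and 2.70 above it in the control pool of that day. In such bulk samples fewer cells of a type and less RNA per cell cannot be told apart.

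Promoters of 3 members are shown because these members span the outcomes described here. In Ccne1 every heme pool lay above every control pool. In Cdkn1b every heme pool lay below every control pool on the gene's brighter probeset, and in Cdk4 the diets gave the same mean. Each stretch runs from 250 bases before to 50 bases after the gene's start in RefSeq (GRCm38.p6). Capitals mark the GC box GGGCGG (also read as CCGCCC on the other strand), the CCAAT box (or ATTGG) and the E-box CACGTG. The Ccne1 stretch is chr7:38107441-38107740 on the minus strand, that of Cdkn1b chr6:134920151-134920450 on the plus strand and that of Cdk4 chr10:127063285-127063584 on the plus strand.
Ccne1: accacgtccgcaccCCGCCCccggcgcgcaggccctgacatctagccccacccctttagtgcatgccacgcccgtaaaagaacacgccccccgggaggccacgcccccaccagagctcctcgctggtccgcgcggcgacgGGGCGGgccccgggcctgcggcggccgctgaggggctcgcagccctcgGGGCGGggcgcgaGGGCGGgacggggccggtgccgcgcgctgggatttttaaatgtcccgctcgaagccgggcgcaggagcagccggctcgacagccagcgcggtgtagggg
Cdkn1b: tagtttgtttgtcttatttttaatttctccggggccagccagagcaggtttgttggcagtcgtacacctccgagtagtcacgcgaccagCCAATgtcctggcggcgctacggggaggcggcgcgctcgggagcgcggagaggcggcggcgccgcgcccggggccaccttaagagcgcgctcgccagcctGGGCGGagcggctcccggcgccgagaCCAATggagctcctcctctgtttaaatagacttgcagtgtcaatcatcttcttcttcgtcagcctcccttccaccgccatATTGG
Cdk4: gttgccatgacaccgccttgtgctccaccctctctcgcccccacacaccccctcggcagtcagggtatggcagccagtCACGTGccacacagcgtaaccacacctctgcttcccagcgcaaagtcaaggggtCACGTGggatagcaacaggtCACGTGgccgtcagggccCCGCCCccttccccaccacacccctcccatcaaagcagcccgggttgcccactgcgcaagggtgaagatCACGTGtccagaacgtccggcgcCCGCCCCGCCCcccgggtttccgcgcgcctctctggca

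The Cdk4 promoter held 4 E-boxes, the letters that Myc and related factors bind, and 3 GC boxes. Of 32851 promoters of the same length 7.15% held an E-box and 0.0244% held at least 4. The Cdkn1b promoter held 3 CCAAT boxes and 1 GC box, and at least 3 CCAAT boxes were found in 3.37% of promoters. The Ccne1 promoter held 4 GC boxes, as many or more than 4 being found in 5.49% of promoters. The letters TTTNNCGC, a loose form of the E2F site, occurred in none of these 3 stretches, against 5.17% of all promoters, and TGTTTAC, a form of the FoxO site, in none, against 3.65%. No 2 different motifs overlapped in these stretches. Promoter entries were found for 7 of the 10 genes. Not matched were Ccnd2, Ccne2 and Cdkn1c. Among the entries not shown, that of Cdk6 held 1 match of TTTNNCGC and 1 of those of Ccnd3 held 1 match of TGTTTAC. These matches describe letters in a window and say nothing of binding.

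Across the diets, 0 of the 9 genes were called in limma at an adjusted p under 0.05, where 0.669% of all genes tested were (100 genes). At an unadjusted p under 0.05 there were 4 of 9, against 17.0% of all genes tested (2547 genes). These were Cdkn1b, Ccnd2 and Cdk6, lower in the heme pools as 8.65% of all genes tested were, and Ccne1, higher as 8.39% were. Taken over all days, the log2 fold changes of the 9 genes lay between -0.29 and 0.21. Single days held wider differences, up to -0.64 for Cdk6 on day 14. The median log2 fold change of the 9 genes was -0.054, with 3 higher and 6 lower, and that of all genes tested was -0.002, with 49.0% higher. Without regard to direction the medians were 0.097 for the 9 genes and 0.072 for all genes tested. No pool has a replicate of its own diet and day, so the spread behind each p-value is that across days within a diet, and the spread among animals is not measured.

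**Figure D1:**
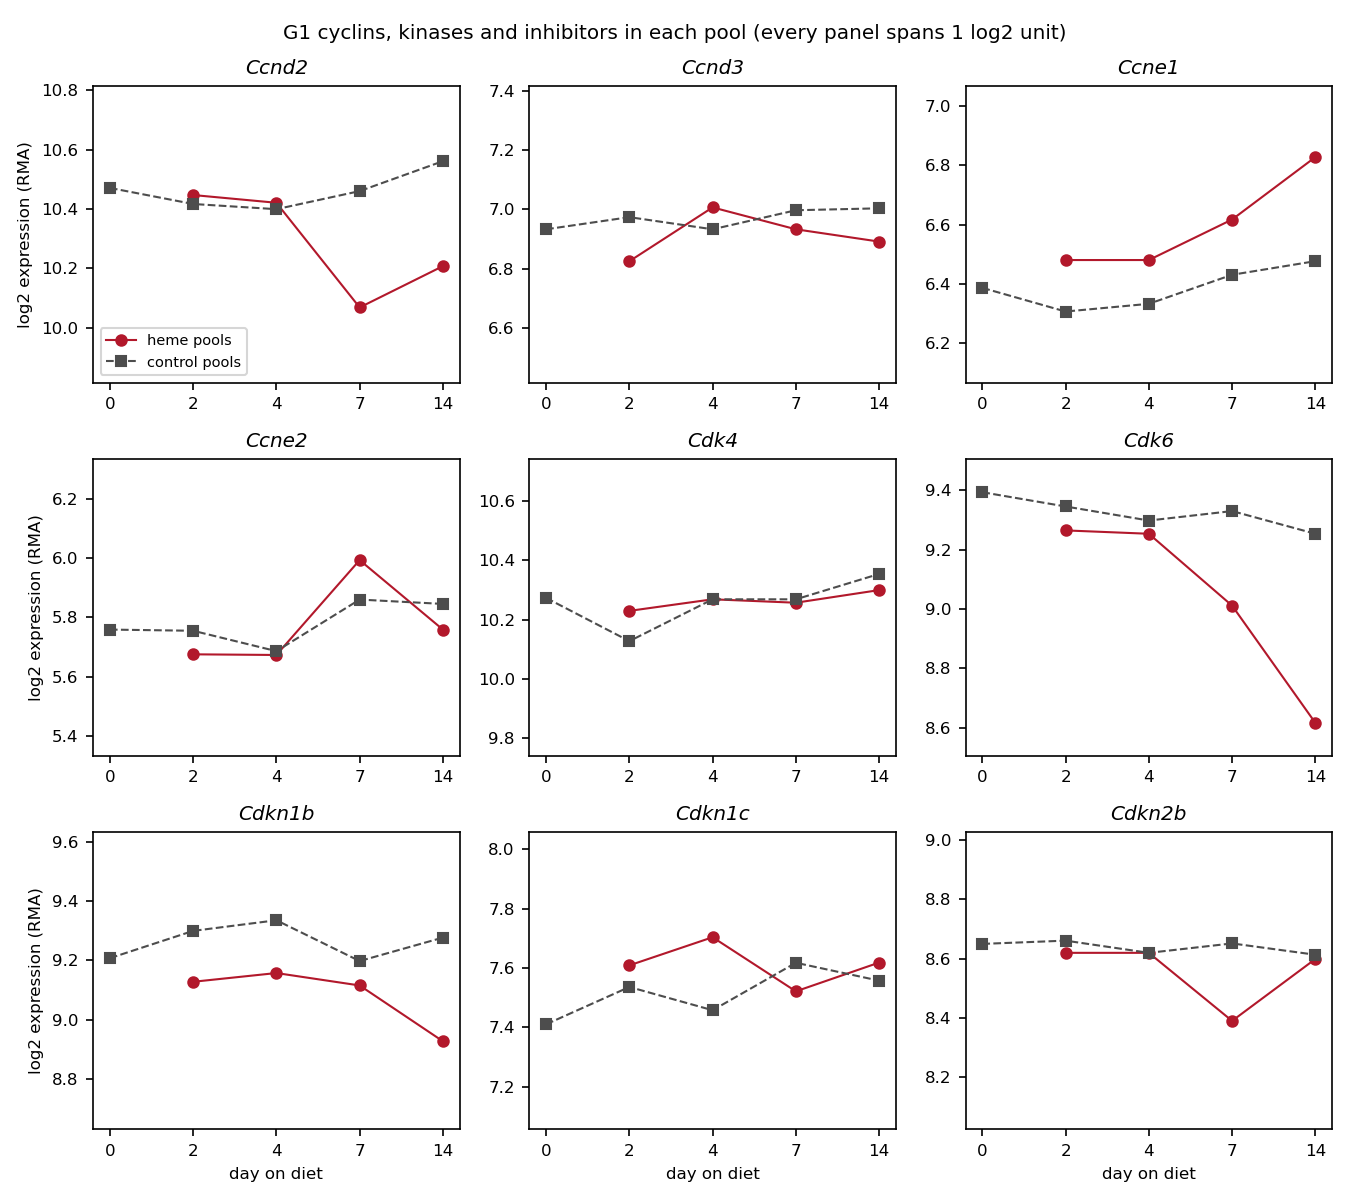
Log2 expression (RMA) of the 9 measured genes in each pool by day on diet (days evenly spaced, each panel spanning 1 log2 unit; heme pools as circles, control pools as squares, 1 array a point). The heme pools of Ccne1 lie above and those of Cdkn1b, on its brighter probeset, below all control pools. Ccnd2 and Cdk6 part from the control pools on days 7 and 14.

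Among the D-type cyclins of the set, Ccnd2 lay below the control pools on heme in the late pools. Ccnd2, which activates Cdk4 and Cdk6 (probeset 10548105, chromosome 6), had log2 levels of 10.45, 10.42, 10.07 and 10.21 in the heme pools of days 2, 4, 7 and 14. In the control pools of days 0, 2, 4, 7 and 14 it had 10.47, 10.42, 10.40, 10.46 and 10.56. The heme pools of days 7 and 14 thus lay below the whole control range, and those of days 2 and 4 within it. The means were 10.29 ± 0.18 in the heme pools (SD, n = 4) and 10.46 ± 0.06 in the control pools (SD, n = 5), a log2 fold change of -0.18 (SE 0.074, limma adjusted p = 0.278). Without the heme pool of day 7 the fold change was -0.10.

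Ccnd3, the other D-type cyclin of the set (probeset 10445688, chromosome 17), had log2 levels of 6.83, 7.01, 6.93 and 6.89 in the heme pools of days 2, 4, 7 and 14. Its control levels were 6.93, 6.97, 6.93, 7.00 and 7.00 on days 0, 2, 4, 7 and 14. The diets overlapped, with the heme pools of days 2 and 14 below the control range and that of day 4 above it. Between the diets the log2 fold change was -0.05 (95% interval -0.16 to 0.05, limma adjusted p = 0.532). It was -0.024 without the heme pool of day 2 and -0.085 without that of day 4.

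The kinases differed from each other in their pattern. Cdk6 (probeset 10519324, chromosome 5) had log2 levels of 9.26, 9.25, 9.01 and 8.62 in the heme pools of days 2, 4, 7 and 14, and of 9.39, 9.35, 9.30, 9.33 and 9.25 in the control pools of days 0, 2, 4, 7 and 14. The heme pool lay below the control pool of its day on 4 of 4 days, as in 12.0% of all genes tested. Of the 9 genes this was so in 2, the other being Cdkn1b on its brighter probeset. The heme pools of days 2 and 4 still reached the control range, and the heme pool of day 4 and the control pool of day 14 had the same value. The heme pools averaged 9.04 ± 0.30 (SD, n = 4) and the control pools 9.32 ± 0.05 (SD, n = 5), a log2 fold change of -0.29 (SE 0.115, limma adjusted p = 0.266), the largest of the 9. Without the heme pool of day 14 it was -0.15.

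Cdk4 (probeset 10366814, chromosome 10) had log2 levels of 10.23, 10.27, 10.26 and 10.30 in the heme pools of days 2, 4, 7 and 14, and of 10.27, 10.13, 10.27, 10.27 and 10.35 in the control pools of days 0, 2, 4, 7 and 14. All 4 heme pools lay inside the control range, and the diets differed by 0.01 log2, with a 95% interval of -0.09 to 0.10 (limma adjusted p = 0.955).

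Of the E-type cyclins, Ccne1 was the member with the higher levels on heme. Ccne1, the partner of Cdk2 at the start of S phase (probeset 10562563, chromosome 7), had log2 levels of 6.48, 6.48, 6.62 and 6.83 in the heme pools of days 2, 4, 7 and 14. In the control pools of days 0, 2, 4, 7 and 14 it had 6.39, 6.31, 6.33, 6.43 and 6.48. Every heme pool lay above every control pool, as for 3.26% of all genes tested, though by a narrow margin, 6.4808 in the heme pools of days 2 and 4 against 6.477 in the control pool of day 14. The means were 6.60 ± 0.16 in the heme pools (SD, n = 4) and 6.39 ± 0.07 in the control pools (SD, n = 5). The log2 fold change was 0.21 (SE 0.076, a 1.16-fold level, limma adjusted p = 0.227), and 0.14 without the heme pool of day 14.

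Ccne2, its close relative (probeset 10503264, chromosome 4), did not share this pattern. It had log2 levels of 5.68, 5.67, 5.99 and 5.76 in the heme pools of days 2, 4, 7 and 14, and of 5.76, 5.76, 5.69, 5.86 and 5.85 in the control pools of days 0, 2, 4, 7 and 14. The heme pool of day 7 was the highest of all 9 and those of days 2 and 4 the lowest. The log2 fold change was -0.01 (95% interval -0.17 to 0.16, limma adjusted p = 0.973), and its sign turned under several alternatives, median centring of the arrays included. The difference between the fold changes of the E-type cyclins was not tested.

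Among the inhibitors, Cdkn1b had the lower levels on heme from the first time point on, as read on its brighter probeset. Cdkn1b holds cyclin E and Cdk2 complexes inactive in cells that rest (probeset 10542310, chromosome 6). It had log2 levels of 9.13, 9.16, 9.12 and 8.93 in the heme pools of days 2, 4, 7 and 14, and of 9.21, 9.30, 9.34, 9.20 and 9.28 in the control pools of days 0, 2, 4, 7 and 14. Every heme pool lay below every control pool, as for 2.33% of all genes tested. The means were 9.08 ± 0.10 (SD, n = 4) in the heme pools and 9.26 ± 0.06 (SD, n = 5) in the control pools, a log2 fold change of -0.18 (SE 0.052, limma adjusted p = 0.163, rank 497 of 14953 by p).

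Cdkn1b has a dimmer probeset as well, 10542317, and it did not separate the diets. Its log2 levels were 8.40, 8.66, 8.58 and 8.01 in the heme pools of days 2, 4, 7 and 14, and 8.65, 8.68, 8.72, 8.49 and 8.59 in the control pools of days 0, 2, 4, 7 and 14. The heme pools of days 4 and 7 lay within the control range. On that probeset the log2 fold change was -0.22 (limma adjusted p = 0.352), of the same sign and with a wider spread.

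Cdkn1c, the third inhibitor of the Cip and Kip family and an imprinted gene (probeset 10569429, chromosome 7), had log2 levels of 7.61, 7.70, 7.52 and 7.62 in the heme pools of days 2, 4, 7 and 14. The control levels were 7.41, 7.54, 7.46, 7.62 and 7.56 on days 0, 2, 4, 7 and 14. The diets overlapped, with the heme pools of days 2 and 7 inside the control range and a log2 fold change of 0.10 (95% interval -0.02 to 0.22, limma adjusted p = 0.362).

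Cdkn2b, which binds Cdk4 and Cdk6 and is known as a target of TGF-beta (probeset 10514347, chromosome 4), had log2 levels of 8.62, 8.62, 8.39 and 8.60 in the heme pools of days 2, 4, 7 and 14. Its control levels kept to a narrow range, with 8.65, 8.66, 8.62, 8.65 and 8.61 on days 0, 2, 4, 7 and 14. The heme pool of day 7 lay well below all other pools and that of day 14 just below the control range. The log2 fold change was -0.08 (95% interval -0.19 to 0.03, limma adjusted p = 0.394), and -0.026 without the heme pool of day 7.

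**Figure D2:**
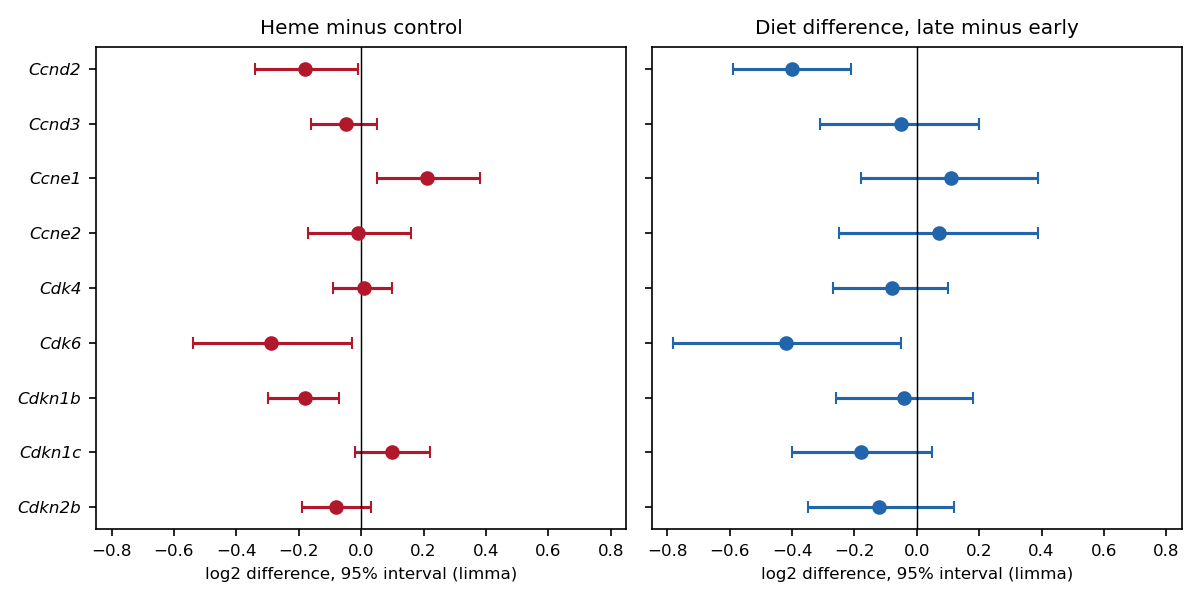
Log2 difference with its 95% interval from limma for each of the 9 genes, heme minus control over 9 pools on the left and the difference of days 7 and 14 minus that of days 2 and 4 (8 pools) on the right. On the left the intervals of Ccnd2, Ccne1, Cdk6 and Cdkn1b leave out 0, on the right those of Ccnd2 and Cdk6, and 0 of the 9 genes pass adjustment over all genes tested.

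The pools of one day allow a view of timing, with 1 array a diet and thus no test of a single day. The median of the 9 same-day differences, heme minus control, was -0.041, 0.0, -0.082 and -0.086 on days 2, 4, 7 and 14, and the median over all genes tested lay between -0.013 and 0.003. Regardless of sign the median difference of the 9 genes was 0.081, 0.045, 0.133 and 0.112 on these days, beside 0.08, 0.068, 0.083 and 0.164 for all genes tested. Day 14 was thus the day with the widest differences over all genes, and the 9 genes did not exceed it there.

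Ccnd2 and Cdk6 had their differences late. For Ccnd2 heme minus control was 0.03, 0.02, -0.39 and -0.35 log2 on days 2, 4, 7 and 14. For Cdk6 it was -0.08, -0.04, -0.32 and -0.64, the last a heme level 0.64 times that of the control pool. Ccne1 and Cdkn1b, the latter on its brighter probeset, differed from the first time point on. Ccne1 had 0.17, 0.15, 0.19 and 0.35, and Cdkn1b -0.17, -0.18, -0.08 and -0.35. On the dimmer Cdkn1b probeset the heme pool of day 7 lay above the control pool of its day, at 8.58 against 8.49. The means of both Cdkn1b probesets gave 0.0 in place of -0.08 on day 7 and -0.47 in place of -0.35 on day 14. Ccne1 was the only one of the 9 genes with the heme pool above its control pool on 4 of 4 days, as were 10.9% of all genes tested.

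**Figure D3:**
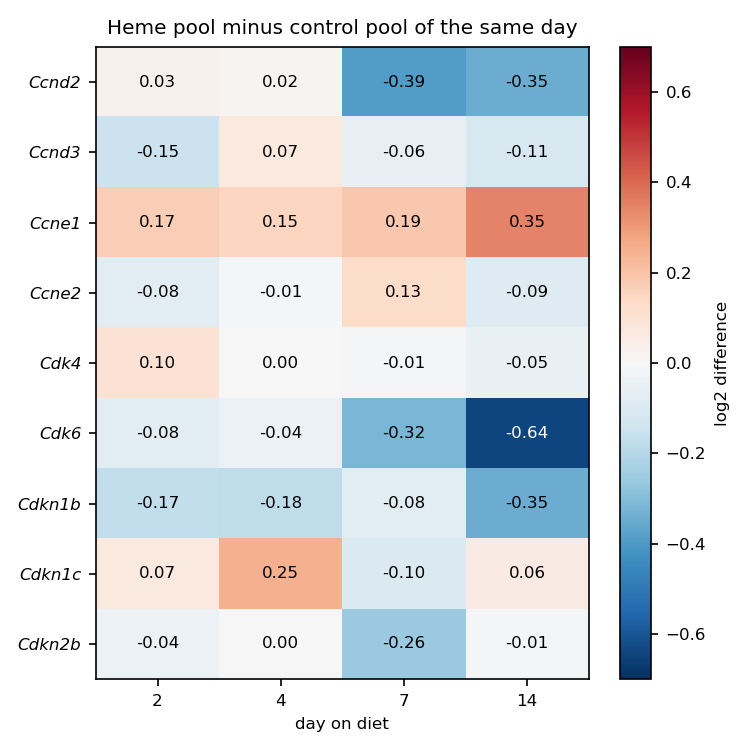
Log2 difference between the heme pool and the control pool of the same day for each of the 9 genes (rows) by day on diet (columns), red for higher and blue for lower in the heme pool, 1 array a diet. Ccnd2 and Cdk6 are near 0 on days 2 and 4 and between -0.32 and -0.64 on days 7 and 14. Ccne1 is above 0 on each day, and Cdkn1b, on its brighter probeset, is below 0 on each day.

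Whether the diet difference itself was larger late than early was tested over the 8 pools of days 2 to 14. In limma 0 of the 9 genes were called, and 0.0% of all genes tested were. At an unadjusted p under 0.05 there were 2 of the 9, Ccnd2 and Cdk6, against 6.62% of all genes tested (990 genes). Both had negative values, as 4.57% of all genes tested did at that threshold. The diet difference of Ccnd2 was 0.40 log2 lower on days 7 and 14 than on days 2 and 4 (late minus early -0.40, SE 0.081, limma adjusted p = 0.394). By unadjusted p Ccnd2 ranked 50 of 14953 in this comparison. Left without 1 pool at a time its value ran between -0.47 and -0.33. For Cdk6 it was -0.42 (SE 0.158, limma adjusted p = 0.721), and -0.22 without the heme pool of day 14. Of the other members Ccne1 had 0.11 (95% interval -0.18 to 0.39) and Cdkn1b -0.04 (95% interval -0.26 to 0.18). An added late difference within these intervals, in either direction, is not excluded. The values of Ccne1 and Cdkn1b rested on single pools. That of Ccne1 was 0.003 without the heme pool of day 14 and 0.213 without that of day 7, and that of Cdkn1b 0.053 and -0.135 without the same pools. Both late differences lay below both early ones in 4 of the 9 genes, as in 24.8% of all genes tested.

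On the control diet alone the slopes with time were small. Fitted against log2(day + 1) in the 5 control pools, the slope gave 0 of 9 genes called in limma, and 0.0% of all genes tested. At an unadjusted p under 0.05 there was 1 of the 9, Cdk6, against 7.18% of all genes tested (1073 genes) and 3.12% with a negative slope. Its slope was -0.03 log2 per doubling of day + 1 (SE 0.012, limma adjusted p = 0.681). The slopes of the 9 genes lay between -0.03 and 0.04. Without the control pool of day 0 those of Cdk4, Ccne1 and Ccnd2 were 0.089, 0.079 and 0.066 (limma adjusted p = 0.77 each), with 0 of the 9 called.

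Further genes of the pathway were taken from lists written by role, with earlier results of these data known. Of 18 other cyclins and cyclin-dependent kinases tested, 0 were called, 7 were higher and 11 lower, and the median log2 fold change was -0.018. The highest were Ccna2, the cyclin of S and G2 phase, with 0.54 (limma adjusted p = 0.156), and Ccnf and Ccnb2 with 0.45 each (0.12 and 0.122), and the lowest Ccnj and Cdk14 with -0.17 each (limma adjusted p = 0.233 and 0.21). Cdk2, the partner of the E-type cyclins, had 0.03 (limma adjusted p = 0.758, named outside the rule after its value was seen). The other INK4 inhibitors had 0 of 3 called and 3 of 3 higher, with 0.22 for Cdkn2c, 0.17 for Cdkn2a and 0.01 for Cdkn2d (limma adjusted p = 0.315, 0.293 and 0.955). In 17 pocket proteins, E2F factors and their partners 0 were called, with 8 higher and 9 lower and a median of -0.008. Highest there were the repressor E2f8 with 0.35 and the activator E2f2 with 0.31 (limma adjusted p = 0.156 and 0.214), and lowest Tfdp2 with -0.15 and the retinoblastoma gene Rb1 with -0.13 (0.386 and 0.169).

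Genes that switch on, assemble or destroy these complexes had 0 of 16 called, with 12 higher and 4 lower and a median of 0.041. Cdc25c, a phosphatase that activates Cdk1, had 0.41 and Cks1b, which helps the Skp2 ligase to mark Cdkn1b for destruction, 0.31 (limma adjusted p = 0.121 and 0.177), while the ubiquitin ligase parts Fbxw7 and Cul1 had -0.07 and -0.06 (0.457 and 0.437). Targets of p53 had 0 of 18 called and a median of -0.022. They ran between -0.29 for Plk2 and -0.17 for Sesn1 at the low end and 0.17 for Plk3 and 0.32 for Ckap2 at the high end (limma adjusted p = 0.148, 0.284, 0.233 and 0.171). FoxO factors and their targets, a group to which Cdkn1b belongs in textbook accounts though it was not counted on this list, had 0 of 12 called, with 3 higher and 9 lower. The lowest were Bcl6 with -0.23 and Foxo4 with -0.19 (limma adjusted p = 0.273 and 0.232), the highest Foxo6 with 0.08 and Irs2 with 0.07 (0.39 and 0.573). Of 11 genes that respond to TGF-beta, 4 were higher and 7 lower, with a median of -0.085. On this list 1 gene was called, where 0.669% of all genes tested were. This was Tgfbi, a matrix protein, which fell by 0.51 on the log2 scale (limma adjusted p = 0.0187).

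**Figure D4:**
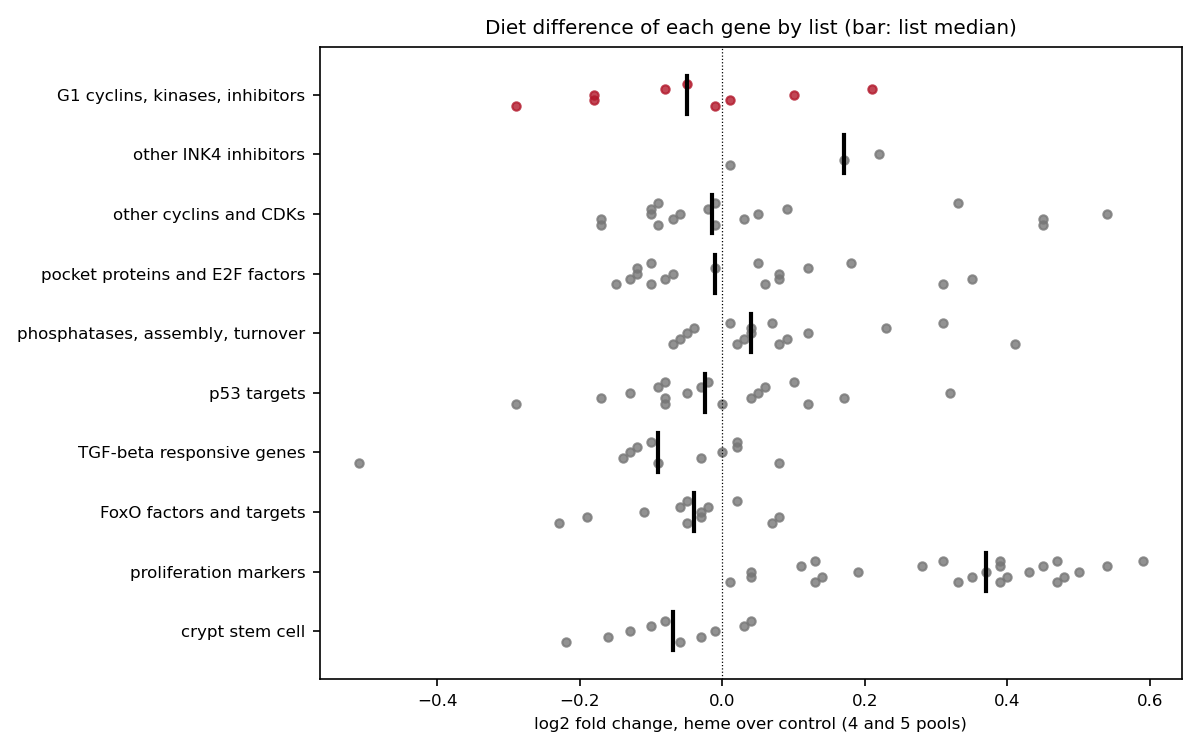
Log2 fold change, heme over control (4 and 5 pools), of each gene tested on the G1 list (red, 9 genes) and on 9 other lists (grey), with the list median as a black bar. The G1 genes lie between -0.29 and 0.21, and the 25 proliferation markers all lie above 0.

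Markers of dividing cells stood beside the G1 genes in the same pools. All 25 proliferation markers had a log2 fold change above 0, with a median of 0.366, 0 called and 18 at an unadjusted p under 0.05 in limma, where 8.39% of all genes tested were at that threshold with a higher level on heme. The highest were Birc5 with 0.59 and Bub1 with 0.54, and the lowest the replication helicase subunits Mcm6 with 0.01 and Mcm2 with 0.04 (limma adjusted p = 0.134, 0.156, 0.974 and 0.794). The mean of the 25 markers was 7.72, 7.64, 8.05 and 8.02 in the heme pools of days 2, 4, 7 and 14, and 7.61, 7.50, 7.41, 7.48 and 7.71 in the control pools of days 0, 2, 4, 7 and 14. It was thus highest in the heme pools of days 7 and 14, in which Ccnd2 and Cdk6 were low. Against the control pool of the same day it was higher on heme by 0.22, 0.23, 0.57 and 0.31 on days 2, 4, 7 and 14. By this same-day measure the markers were higher on heme on the early days as well. The heme pool of day 4, at 7.64, still lay within the control range of 7.41 to 7.71, and that of day 2, at 7.72, just above it.

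Marker genes of other cell types were read in the same pools. The mean of 8 enteroendocrine genes was 7.78, 7.74, 7.49 and 7.28 in the heme pools of days 2, 4, 7 and 14 and between 7.75 and 7.93 in the control pools. Of these 8 genes 7 were lower and 0 were called in limma, with a median log2 fold change of -0.236 and a range of -0.65 to 0.03. The mean of 11 crypt stem cell genes was 7.28, 7.30, 7.17 and 7.15 in the heme pools of days 2, 4, 7 and 14. In the control pools it lay between 7.26 and 7.31, and of the 10 tested genes 8 were lower and 0 were called. The part of these cells, or of dividing cells, in the levels of Ccnd2 and Cdk6 was not tested. The mean of the smooth muscle genes was 6.93, 7.46, 8.54 and 7.11 in the heme pools of days 2, 4, 7 and 14, and 7.51, 6.99, 7.77, 9.14 and 8.08 in the control pools of days 0, 2, 4, 7 and 14. Heme minus control on the same day was -0.06, -0.31, -0.60 and -0.97 for this mean, so it was wider on days 7 and 14, as for Ccnd2 and Cdk6. Of the 10 smooth muscle genes 9 were lower and 0 were called, and their part in the levels of Ccnd2 and Cdk6 was not tested. The other cell lists had 0 called genes except colonocyte genes, where 1 of 12 was called. This was the water channel Aqp8 (0.66 log2, limma adjusted p = 0.0113, named after its value was seen). Of the 12 colonocyte genes 9 were higher and 3 lower, with a median log2 fold change of 0.055. Their mean lay between 11.55 and 11.65 in the heme pools and between 11.48 and 11.53 in the control pools.

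For each family the member with the strongest diet statistic was set against all genes tested by Pearson's r over the 9 arrays. The levels most like those of Ccne1 were those of Mdh2, the mitochondrial malate dehydrogenase (r = 0.99), Uqcrc2 of the respiratory chain (r = 0.989) and Naa38 (r = 0.983). Most like Cdk6 were the carboxypeptidase Cpm (r = 0.996), Retreg1 (r = 0.995) and the transcription factor Foxp1 (r = 0.993), and most like Cdkn1b were Gimap3 (r = 0.967), Mptx1 (r = 0.966) and the nuclear matrix protein Matr3 (r = 0.965). These are the highest of 14953 genes over only 9 arrays that share the diets and days, and none of these 9 genes was called between diets (adjusted p between 0.156 and 0.3 in limma).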

How the data were processed

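Per the labels' protocols, RNA of each mouse was pooled within its diet and day, and 1 Affymetrix whole-transcript array was run for each of the 9 pools. The authors deposited log2 values per probeset from RMA, per the submitters' processing notes (version: not given in the sources used here). Its median polish can give several arrays an identical value. Arrays have no read depth, so precision rests on their number.

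Of 35556 probesets, 21789 had 1 gene symbol, 1621 had several (not used) and 12146 were unnamed here. By Entrez ID 21698 matched the RefSeq gene table, with 0 symbols changed. The brightest probeset stood for a gene, and genes with a mean at or above the 25th percentile (4.716 log2) were tested. Models were fitted in limma 3.58.1 (R 4.3.3, lmFit, eBayes with trend), with Benjamini and Hochberg adjustment over all genes tested and calls at an adjusted p under 0.05. The fit was also run on simulated data with independent noise for each gene and array. Such data leave out variation shared by pools of a day, so they do not measure precision in these pools. Tables used Python 3.11.15 and pandas 2.3.3, figures matplotlib 3.10.9.

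The members and lists were chosen with earlier results of these data known. The 20 lists beside the members hold 236 genes, 223 of them matched. Named are all members, the called genes of a pathway list or else its 2 highest and 2 lowest, and the 3 genes most like 1 member of each family; cell marker lists are given by counts, medians and ranges, and exceptions are stated where they stand. Deviations of same-day pools correlated with r = 0.658, 0.0, 0.3 and 0.204 on days 2, 4, 7 and 14; the labels share the day, not animals, and the day block is an alternative. Others changed the filter, trend, probeset rule, centring, time scale and pools. The swap to the dimmer Cdkn1b probeset was chosen after seeing the data.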

Additional observations from a re-analysis of the deposited data

Results flagged for a closer look

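Cdkn2b in the heme pool of day 7 stood far from the other 3 heme pools, at 8.39 log2 against 8.60 to 8.62. Its gap to the nearest pool made up 0.909 of the range of the heme pools, above Dixon's 95% value of 0.829 for 4 samples. Of 18 groups of member values looked at in this way 1 was set apart, and chance alone sets apart about 1 in 20.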

How the results depend on the processing

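Under all alternatives run, 0 of the members tested were called in limma in any of the 3 comparisons. The 9 genes were tested in each, except that the filter at the median of gene means left 8 and removed Ccne2. The fold changes of Ccnd2, Ccnd3, Ccne1, Cdk6, Cdkn1b, Cdkn1c and Cdkn2b between diets kept their sign in all of them. The diet count over all genes, 100, was 0 without both pools of day 7 and ran between 30 and 251 when 1 pool was left out, lowest without the control pool of day 4 and highest without the heme pool of day 2. Dropping a control pool gave 49 genes for day 0, 58 for day 2 and 48 for day 14. Dropping a heme pool gave 36 for day 7 and 46 for day 14. With the day as a replicate block 77 genes were called, and the block changed no member's call (log2 fold changes -0.20 for Cdkn1b, 0.215 for Ccne1, -0.27 for Cdk6 and -0.17 for Ccnd2). Signs turned where values were near 0. Ccne2 between diets was 0.001 with centred arrays and 0.021 without both pools of day 2, and between -0.078 and 0.028 with 1 pool left out. Cdk4 was -0.016 without both pools of day 2, and between -0.027 and 0.029 with 1 pool left out. Late minus early, leaving out 1 pool gave -0.142 to 0.04 for Ccnd3, -0.048 to 0.186 for Ccne2 and -0.135 to 0.053 for Cdkn1b. The control slope of Cdkn1b was -0.002 with centred arrays, -0.009 with the mean of the probesets, -0.027 on its other probeset and -0.024 to 0.019 with 1 pool left out, and that of Ccnd2 -0.01 to 0.066. The cause was not tested. With 1 array a diet and day, differences between animals are not measured.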
